A study of Homo sapiens with 4 samples.

Results

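PML, the protein that builds PML nuclear bodies, was mapped on chromatin of MDA-MB-231 cells, an established human line of triple-negative breast cancer, by immunoprecipitation and sequencing. The labels give 2 libraries made with a PML antibody and 2 input libraries from the same unmodified line, grown in serum-containing medium, with no other treatment, genotype or time. The authors merged the duplicates and deposited 1 annotated list of 68937 peaks, so no value here has a replicate error, no comparison has a test, and read depth is unknown. The genes described here are MAF1 and 9 genes of the RNA polymerase III machinery (BRF1, BRF2, BDP1, POLR3A, POLR3B, POLR3E, GTF3C1, GTF3C2 and GTF3C4). They were chosen by gene name with earlier results of this list known, among them the high score of MAF1, so the height of that score is a description and not a finding. The list names 9 of the 10 as the nearest gene of a peak, among 13948 protein-coding genes that it names, in 43 of its peaks.

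RNA polymerase III makes transfer RNAs, 5S ribosomal RNA, U6 small nuclear RNA and other short non-coding RNAs that translation and RNA processing depend on. TFIIIC recognises promoter elements inside most of these genes and brings in TFIIIB, which holds TBP, BDP1 and either BRF1 or BRF2 and recruits the polymerase. MAF1 binds the polymerase and represses it. The kinase mTOR, named with PML and the factor RONIN in the title of the series, phosphorylates MAF1 and so relieves this repression when nutrients are available.

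A peak centred within 1000 bp of a transcription start site (TSS) of the gene it names is called a promoter peak here. By this rule 7 of the 10 genes had a promoter peak: MAF1, BRF1, BDP1, POLR3A, POLR3B, POLR3E and GTF3C2. That is 7 of the 9 that the list names, a share close to the 78.6% over all protein-coding genes named, and 7 of 10 beside 54.4% of all 20037 RefSeq protein-coding genes. The highest promoter score was 750 at MAF1, 90 at POLR3E, 63 at POLR3A, 60 at GTF3C2, 55 at BRF1, 42 at BDP1 and 36 at POLR3B. The median over these 7 genes was 60, beside 63 over the 10958 protein-coding genes with a promoter peak, whose quartiles were 40 and 106. The peak score is the authors' own whole number, with a scale that neither the file headers nor the labels explain, and lies between 13 and 5641 over the list. By the nearest-gene column the MAF1 score was 8.33 times that of the next of these genes, a ratio of scores of unexplained scale, while the other 6 lay between 36 and 90, within those quartiles except for POLR3B, just below them. Counted by position, peaks credited to neighbours lay near the starts of GTF3C4 (343) and BRF1 (98 near its outermost start, 114 and 106 at internal starts). The MAF1 score was 2.19 times that at GTF3C4.

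**Figure D1:**
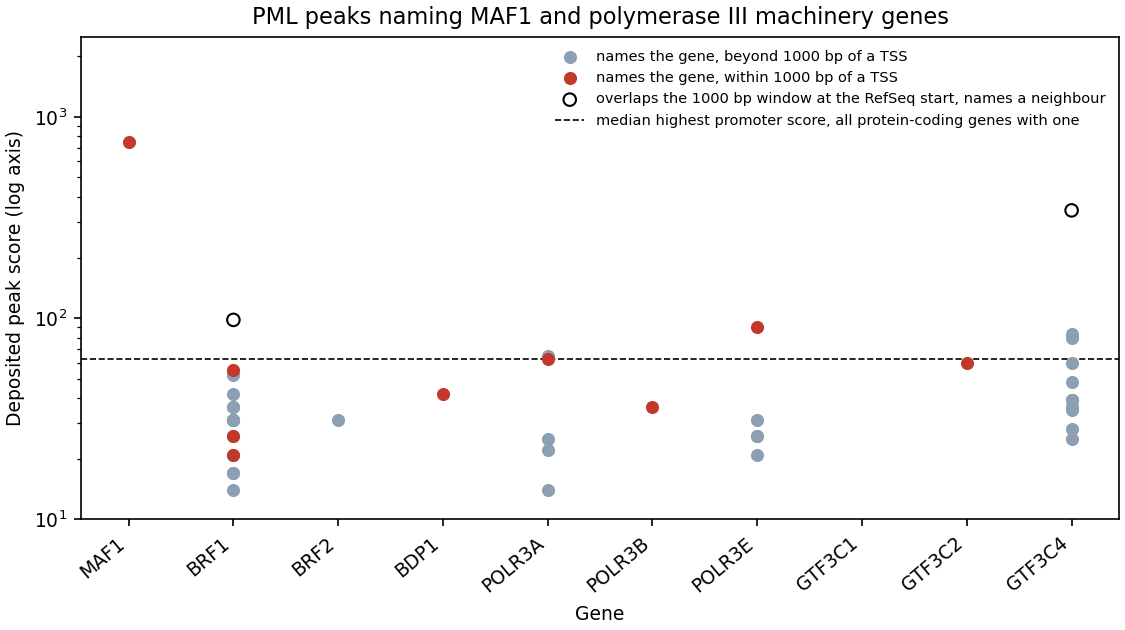
Deposited score (log axis) of each of the 43 peaks that name a gene of the set, by gene; red points lie within 1000 bp of a TSS, grey points farther away, and open circles are peaks near a RefSeq start that name a neighbouring gene, and the dashed line is the protein-coding median of 63. MAF1 has a single peak at 750, GTF3C1 has none, and the open circle at GTF3C4 stands at 343.

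MAF1, the repressor, had 1 peak and it was both high and broad. It ran on chromosome 8 from 144103152 to 144106483 in hg38, with its centre 356 bp past the TSS, in the 5' untranslated region by the deposited annotation. Its width of 3331 bp was reached by 76 of 12106 protein-coding promoter peaks (0.628%), whose median was 763.5 bp. The peak reached from 1309 bp before the MAF1 start to 2022 bp past it, over 64.2% of the 3151 bp gene. It also covered 622 bp of SHARPIN, the neighbouring gene, which encodes a subunit of a ubiquitin ligase complex. These bases are the end of SHARPIN that faces MAF1, up to 144103773. The peak therefore cannot be told apart from a peak of SHARPIN. Among protein-coding genes ranked by their highest promoter score MAF1 was in place 4 of 10958. It came below TMEM222 (830) and CPSF1 (811) and above C1QTNF3 (666) and ZNF341 (607). The CPSF1 peak, 2131 bp wide, also lay on chromosome 8, from 144407929 to 144410060. The promoter peaks with a score similar to that of MAF1 (600 to 937.5) numbered 7, the MAF1 peak itself included. Their median width was 1635 bp, and 71.4% of the 7 were narrower than the MAF1 peak.

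The MAF1 peak lay in a stretch crowded with PML peaks. Within 100 kb of the MAF1 start the list held 49 peaks that covered 32.8% of the sequence, while the median over all RefSeq protein-coding genes was 5 peaks and 97.6% of those genes had fewer. Of the 49 peaks, 33 had a score at or above the list median of 34 and 10 were 2000 bp wide or more, a width reached by 1.69% of all peaks. The next highest in the stretch were 373 at the promoter of HGH1, a chaperone gene for translation elongation factor 2, and 371 near the microRNA gene MIR6847, and a peak with a score of 269 lay at MROH1. MAF1, HGH1 and MROH1 were the protein-coding genes there named by a peak centred within 1000 bp of their TSS. Broad peaks centred farther in also spanned the starts of other genes, among them CYC1 (179), GPAA1 (249) and OPLAH (195, credited to MIR6846). The adjoining peak on the upstream side, over the whole of the cytochrome c1 gene CYC1, was 6134 bp wide with a score of 179, and 2593 bp separated it from the MAF1 peak. Downstream, a gap of 1312 bp led to a peak of 2831 bp and a score of 124 inside WDR97. The part of this crowding in the MAF1 score was not tested.

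**Figure D2:**
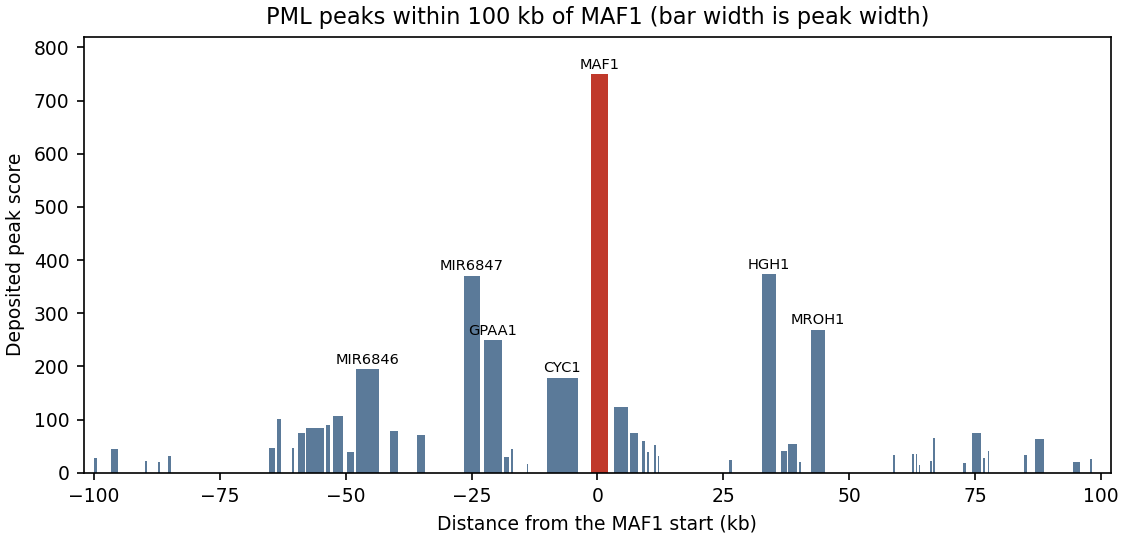
Peaks within 100 kb of the MAF1 start, drawn at their true width (horizontal axis, kb) and deposited score (vertical axis from 0); the MAF1 peak is red. It stands at 750, above the next peaks at 373 (HGH1) and 371 (MIR6847), and 49 peaks fill the stretch.

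The TFIIIB genes differed in how many peaks named them. BRF1, the TFIIIB subunit used at transfer RNA and 5S genes, was named by 17 peaks, the most of the set, with scores from 14 to 55. Its 3 promoter peaks scored 55 (chromosome 14 from 105314928 to 105315549, 621 bp), 26 and 21. Those of 55 and 26 lay on either side of the outermost start, centred at 339 and -731 bp from it, and that of 21 lay at an internal start, at -588 bp. The 14 other BRF1 peaks had a median score of 31 and were spread over the gene and over the introns of PACS2, a sorting protein gene whose body overlaps BRF1. Inside BRF1 the list also held peaks credited to neighbours. A peak of 114 at the start of BTBD6 (chromosome 14 from 105247848 to 105249316) covered the annotated BRF1 starts at 105247894 and 105248475. A peak of 106 at a start of PACS2 covered the BRF1 start at 105301001, and a peak of 98 lay at another start of PACS2. The BRF1 region was dense as well, with 40 peaks within 100 kb of the gene start, more than at 95.8% of RefSeq protein-coding genes, but they covered 10.7% of the sequence against 32.8% around MAF1. BDP1, the TFIIIB subunit common to both forms, had a single peak with a score of 42 and a width of 353 bp, from -135 to 218 bp relative to its start, on chromosome 5 from 71455516 to 71455869. Nothing else lay in its 122638 bp body, and 48.7% of 1436 genes of similar length had 1 peak or none. BRF2, which serves the U6 type of promoter, had no peak within 1000 bp of its start or in its body. An empty body was seen in 36.6% of 1502 genes of similar length. The 1 peak that names BRF2 (score 31) lay 925 bp beyond the end of the gene and 7518 bp from its start. That peak ran on chromosome 8 from 37842048 to 37842343, over the last exon of another gene.

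Among the TFIIIC genes the nearest-gene column and the position of the peaks parted. GTF3C4, a TFIIIC subunit with acetyltransferase activity, was named by 11 peaks, none closer than 46021 bp to its TSS, with scores from 25 to 83. Yet a peak with a score of 343 and a width of 1558 bp lay across its start, from -556 to 1002 bp relative to it, on chromosome 9 from 132669479 to 132671037. The list credits this peak to DDX31, a helicase gene that starts on the other strand 51 bp away, with its centre 143 bp from a DDX31 TSS by the deposited distance. The centre lay 223 bp past the RefSeq start of GTF3C4. The annotation column of the same peak names the GTF3C4 transcript. Only 77 protein-coding genes had a higher promoter score. At GTF3C2, which encodes a subunit that binds the B box region together with GTF3C1, the promoter peak scored 60 and was 1215 bp wide. It lay on chromosome 2 from 27356254 to 27357469 and was wider than 82.8% of promoter peaks of similar score (48 to 75). This peak covered 511 bp of GTF3C2 and 705 bp of the adjoining long non-coding RNA gene GTF3C2-AS2. It cannot be told apart from a peak of GTF3C2-AS2. GTF3C1, the largest TFIIIC subunit, was the nearest gene of no peak. No peak lay in its 89301 bp body, as for 17.5% of 1671 genes of similar length, and the nearest was 186967 bp from its start, near IL21R. No peak lay within 100 kb of the start either, which was so for 9.29% of RefSeq protein-coding genes. The neighbouring gene KATNIP begins 230 bp away, and no peak credited to it lay there.

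**Figure D3:**
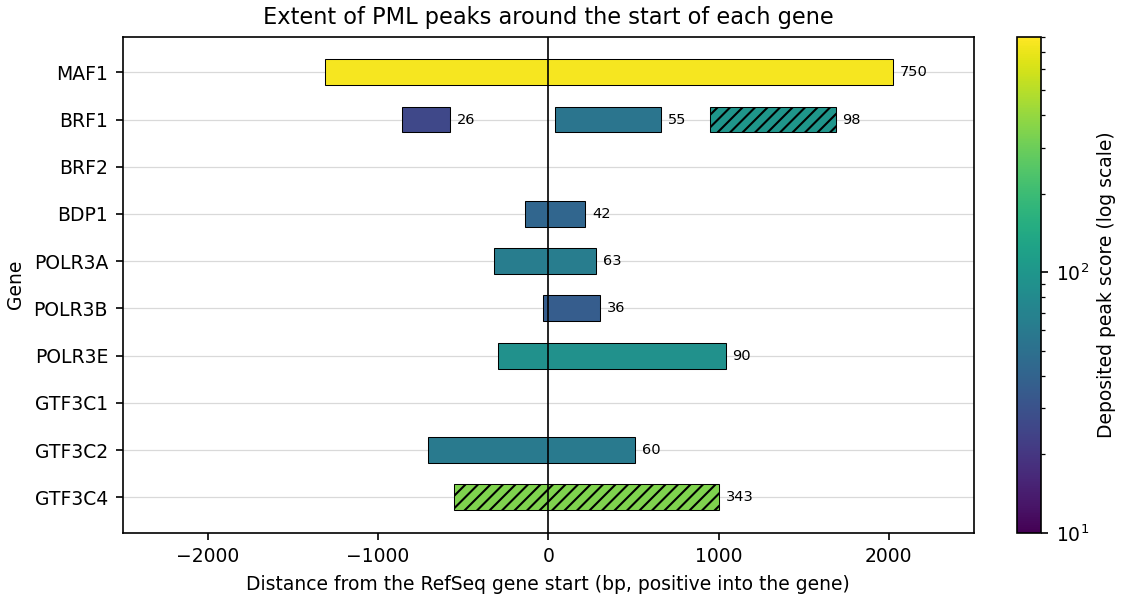
Peaks near the RefSeq start of each gene (horizontal axis, bp from the start), drawn to scale with the score beside each (colour, log scale); hatched bars are peaks that the list credits to a neighbouring gene. The MAF1 bar runs from 1309 bp before to 2022 bp after the start, the GTF3C4 bar is hatched because it is credited to DDX31, and the rows of BRF2 and GTF3C1 are empty.

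The subunits of the polymerase itself had promoter peaks of ordinary height. POLR3A and POLR3B, which form the catalytic centre, had scores of 63 (596 bp, chromosome 10 from 78029236 to 78029832) and 36 (332 bp, chromosome 12 from 106357717 to 106358049). The POLR3B peak was the lowest and narrowest of the 7, with 16.5% of promoter peaks of similar score (28.8 to 45) narrower still. It was the only peak in a gene of 152451 bp, and 45% of 1170 genes of similar length had 1 peak or none. The POLR3A peak was centred 19 bp before the TSS. In the POLR3A body 4 more peaks had scores of 14, 22, 25 and 65, so the highest-scoring POLR3A peak was not at the promoter but 40094 bp into the gene. POLR3E, a peripheral subunit, had a peak with a score of 90 and a width of 1337 bp on chromosome 16 from 22297114 to 22298451, over a CpG island by the deposited annotation, and 66.5% of genes with a promoter peak had a lower score. The 4 other peaks that name POLR3E had scores from 21 to 31. The POLR3E peak also spanned a whole transfer RNA gene, TRL-AAG2-4 for leucine, which lies from 22297140 to 22297221 and ends 188 bp before the POLR3E start. A template of the polymerase and a gene for one of its subunits thus lay under the same PML peak.

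The DNA just upstream of 4 of these genes is shown because it sets a promoter with a transfer RNA gene, a pair with the same E-box and a promoter with no peak side by side. All are 250 bases that end at the base before the RefSeq start, 5' to 3' on the gene's strand, from the RefSeq promoter table of GRCh38.p14, which held 14 starts of 8 of the 10 genes. For POLR3E (chr16:22297159-22297408) the capitals mark the 63 bases of TRL-AAG2-4 that fall in the window. For GTF3C4 (chr9:132669785-132670034), POLR3A (chr10:78029516-78029765) and GTF3C1 (chr16:27549914-27550163) they mark matches, on either strand, to the motifs listed after the sequences.
POLR3E: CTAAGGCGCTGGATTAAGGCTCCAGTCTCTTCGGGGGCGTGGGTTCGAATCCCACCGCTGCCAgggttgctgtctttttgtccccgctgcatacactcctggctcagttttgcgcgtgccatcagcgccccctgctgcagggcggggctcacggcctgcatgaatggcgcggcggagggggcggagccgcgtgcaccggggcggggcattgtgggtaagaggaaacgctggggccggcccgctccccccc
GTF3C4: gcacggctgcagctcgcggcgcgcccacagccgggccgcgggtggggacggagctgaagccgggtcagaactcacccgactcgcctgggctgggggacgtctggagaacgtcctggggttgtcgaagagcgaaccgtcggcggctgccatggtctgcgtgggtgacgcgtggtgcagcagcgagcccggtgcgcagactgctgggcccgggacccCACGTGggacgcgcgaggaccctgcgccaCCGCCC
POLR3A: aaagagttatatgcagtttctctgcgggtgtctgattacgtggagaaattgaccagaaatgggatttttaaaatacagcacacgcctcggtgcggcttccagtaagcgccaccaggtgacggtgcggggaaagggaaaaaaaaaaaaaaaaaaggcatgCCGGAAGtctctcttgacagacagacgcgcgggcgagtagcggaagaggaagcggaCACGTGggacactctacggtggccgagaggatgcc
GTF3C1: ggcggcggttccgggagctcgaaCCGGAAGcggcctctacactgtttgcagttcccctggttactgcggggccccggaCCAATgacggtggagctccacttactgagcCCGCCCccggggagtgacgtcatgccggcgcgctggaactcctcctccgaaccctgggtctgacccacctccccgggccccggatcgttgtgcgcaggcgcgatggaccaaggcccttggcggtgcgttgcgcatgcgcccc

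In the transfer RNA part of the POLR3E sequence stands GTTCGAATC, a match to GTTCGANTC, the core of the B box that TFIIIC binds, from 208 to 200 bp before the POLR3E start. This motif was picked after the sequence was seen, and 0.234% of 22199 protein-coding promoter windows of this length held it on either strand. The E-box CACGTG, the site of MYC and related factors, occurred in the windows of GTF3C4, POLR3A and GTF3C2, and in 7.37% of all windows. In GTF3C4 and POLR3A it stood at the same place, from 35 to 30 bp before the start. The GC box GGGCGG was in 8 of the 14 windows (53.7% of all), among them 3 copies in that of POLR3E. The ETS core CCGGAAG was in 2 of 14 (10.7% of all), POLR3A and GTF3C1, the CCAAT box in 3 (32.7% of all), and TATAAA in none (9% of all). The inner part of the element that RONIN and ZNF143 recognise, TACANNTCC, was in none of the 14 and in 3.77% of all windows. Most of the 14 windows lay under a peak, and several belong to the same gene, BRF1. Over windows under a peak the shares were 74% for GGGCGG, 15.7% for CCGGAAG and 30% for CCAAT. They were 9.29% for CACGTG, 3.47% for TATAAA and 4.34% for TACANNTCC. The GTF3C1 window, under no peak, was 69.6% G and C with an observed to expected CpG ratio of 0.861. These values were close to the medians of 68% and 0.847 over windows under a peak and above the 54% and 0.387 of windows under none. The outermost BRF1 window was also under no peak, and its 55.2% and 0.473 were closer to the medians of windows under none. The windows of POLR3A (52%) and BDP1 (51.2%) were under peaks with a lower G and C content. Their CpG ratios were 1.12 at POLR3A, above that of GTF3C1, and 0.614 at BDP1, below it.

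Across the wider polymerase III machinery, genes had a named promoter peak about as often as protein-coding genes at large, and several had a peak at the start that is credited to a neighbour. The wider list held 36 genes: 11 subunits of the polymerase, 7 subunits shared with other polymerases, TFIIIA, TFIIIB, TFIIIC, the SNAPc complex of U6-type promoters, MAF1 and the La protein. A promoter peak named 20 of the 36 (55.6%), beside 54.4% of all RefSeq protein-coding genes, with a median highest score of 62 beside 63. Among the highest after MAF1 were 172 at GTF3C6, a small TFIIIC subunit, 169 at GTF3A, which encodes the 5S factor TFIIIA, and 92 at CRCP, which encodes a subunit of the polymerase. Another 7 had no named promoter peak but a peak overlapping the 1000 bp on either side of the RefSeq start: GTF3C4 (343), POLR3C (254, credited to RNF115), SNAPC4 (197, centred farther from the TSS), POLR2L (192, TSPAN4), POLR1C (55, YIPF3), POLR3GL (50, ANKRD34A) and POLR3F (26, DZANK1). By this position rule 27 of the 34 genes with a placed start had a peak, as did 8 of the 10 genes of the set and 7 of its 8 in the promoter table, beside 65.1% of the 15843 protein-coding genes of the promoter table. Neither kind of peak was found at POLR2F, TBP, BRF2, GTF3C1, SNAPC1, SNAPC2 or SSB, which encodes La, and the starts of POLR3G and POLR2K, which also lack a named promoter peak, were not placed. All 16 genes without a named promoter peak are thus accounted for.

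**Figure D4:**
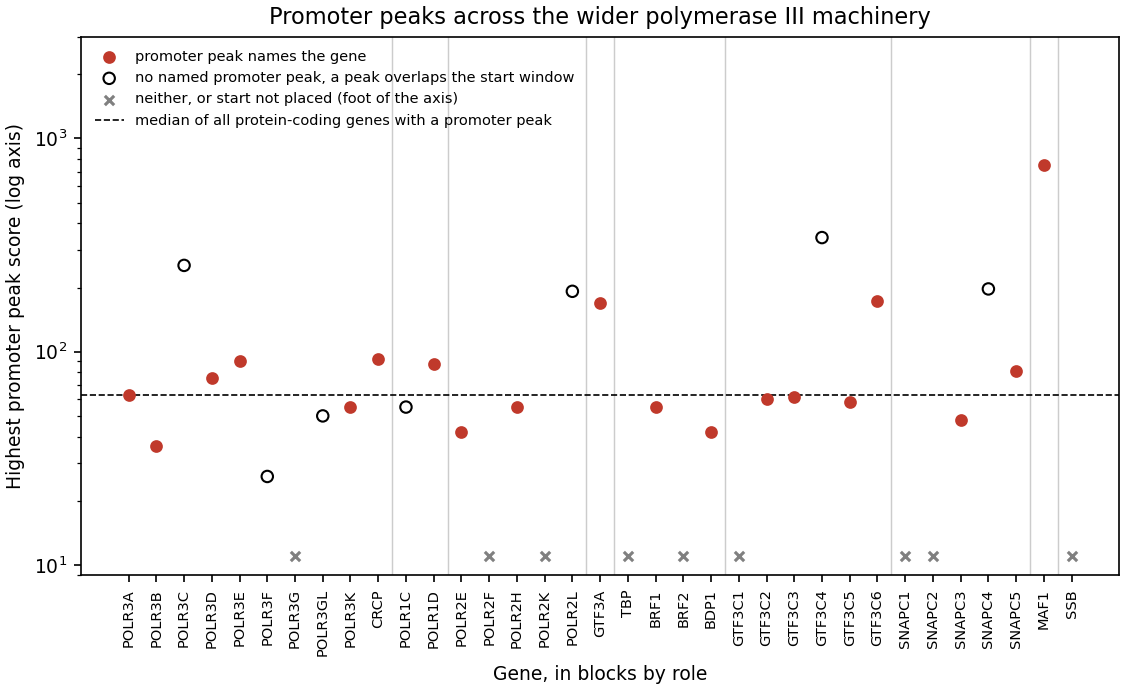
Highest promoter score (log axis) of genes of the wider polymerase III machinery, in blocks by role; open circles are peaks near the start of genes that have no named promoter peak, and crosses mark genes with neither or with a start not placed, and the dashed line is the protein-coding median of 63. MAF1 stands alone at 750, and the open circles of GTF3C4 and POLR3C lie at 343 and 254.

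The other polymerases were looked at in the same way, with no test of a difference. Of 12 genes for polymerase I subunits and factors, 6 had a named promoter peak with scores from 26 to 183 (TAF1C) and a median of 98. Of 7 genes for subunits found only in polymerase II, 5 had one, from 26 to 117 (POLR2G), with a median of 75. The share over all RefSeq protein-coding genes was 54.4%, and the median over the 7 genes of the set with a promoter peak was 60. All lay far under the MAF1 score, and 4 of the polymerase I and 2 of the polymerase II genes lay above the 90 of POLR3E. Both lists were chosen after the data were seen.

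Some of the genes that polymerase III transcribes lay under PML peaks, and many did not. Of 20 such genes taken by name, 17 were named in the list and 13 had a promoter peak by the nearest-gene column. Of all 4371 named genes of other types than protein-coding, 34.8% had one. The median score was 61 over the 13, beside 48 over the 1520 such genes. The highest were 180 at RPPH1, the RNA of ribonuclease P (chromosome 14 from 20342795 to 20343716), 127 at RMRP, the RNA of the related RNase MRP, 114 at the vault RNA gene VTRNA1-1, and 99 at both VTRNA1-2 and RNU6ATAC, a minor spliceosome RNA. The sixth, a score of 95 credited to RNU6-9, sits on chromosome 14 over RNU6-7 in RefSeq. The U6 genes are near-identical copies, and how the list came to this name was not tested. The RPPH1 and RMRP peaks also cover starts of the protein-coding genes PARP2 and CCDC107, so they cannot be told apart from peaks of those genes. The same limit holds for RN7SL1 (51) and RN7SK, whose peaks the deposited annotation places at promoters of the protein-coding genes RPS29 and GSTA4. Counted by RefSeq position, 12 of the 20 were overlapped by a peak, beside 11.5% of 3709 RefSeq genes for transfer, micro, small nucleolar and small nuclear RNAs, and for 3 of these the list names another gene. RN7SK, the RNA that restrains the elongation factor P-TEFb, had a score of 21, place 56292 of the 68937 peaks. Among 17 genes for 5S RNA, which are copies of one another, 2 had a named promoter peak (115 at RNA5S8 and 95 at RNA5S5), and how reads were placed among the copies was not tested.

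Transfer RNA genes were counted by position, because the list names none of them. Of 443 RefSeq transfer RNA genes 142 (32.1%) were overlapped by a peak, beside 22.1% of 154 small nuclear RNA genes, 11.3% of 1913 microRNA genes and 2.92% of 1199 small nucleolar RNA genes. Median lengths were 73, 120, 80 and 104 bp in that order. Some transfer RNA entries stand out of position order, such as TRN-GTT26-1 at 28755 on chromosome 1 and TRA-CGC5-1 at 185743 on chromosome 6. Whether such entries lie on the main chromosome sequences was not checked, so the shares may be too low. The 142 genes lay under 109 peaks with a median score of 86 and a median width of 955 bp. Of the 109 peaks, 74 were centred over 1000 bp from the TSS of the gene they name. The highest, with a score of 600, covers TRK-CTT2-3 and TRV-CAC1-5 on chromosome 5 at the promoter of TRIM41. The share was uneven: 5 of 155 transfer RNA genes on chromosome 6 (3.23%) were overlapped against 137 of 288 elsewhere (47.6%). Peaks of any kind were also fewer there, with a median of 2 within 100 kb of a transfer RNA gene on chromosome 6 and 14 elsewhere. The part of this local density in the shares was not tested, and this count was chosen after the data were seen. Many transfer RNA genes are also copies of one another, and how reads were placed among the copies was not tested.

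**Figure D5:**
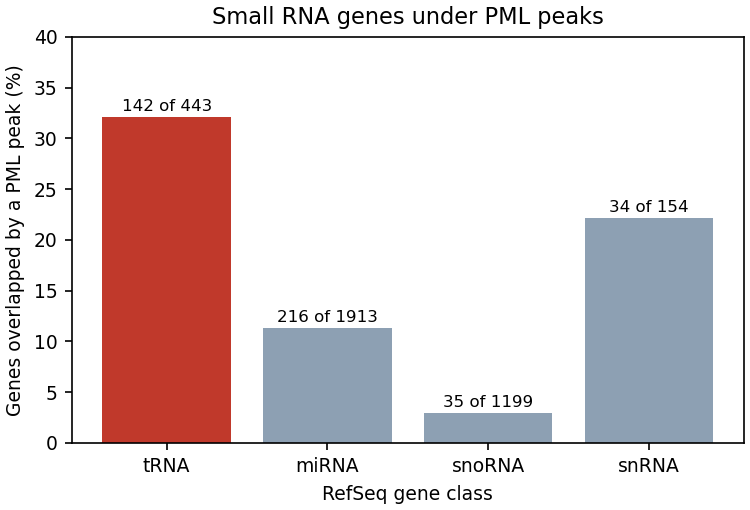
Percent of RefSeq genes of 4 small RNA classes that a PML peak overlaps by 1 bp or more (vertical axis from 0), with the counts above each bar. Transfer RNA genes stand highest, with 142 of 443, followed by small nuclear RNA genes with 34 of 154.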

How the data were processed

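Per the labels, chromatin from MDA-MB-231 cells was immunoprecipitated with a PML antibody (2 libraries, with 2 inputs) and the duplicates were merged. Peak caller MACS2 2.1.1.20160309, annotation tool HOMER 4.11.1, aligner BWA 0.7.12, read trimmer Trimmomatic 0.36, Picard 2.0.1 and build hg38 are listed in the submitters' processing notes, without settings. The deposited peak score is the authors' own value, used only to describe and rank peaks within the list; positions and distances are kept in bp as in the file, and width is end minus start. Genes were taken from the nearest-gene column. RefSeq positions are those of GRCh38.p14, the same build as hg38. All 10 genes were found in RefSeq by symbol, and 8 in its promoter table. Peaks of similar score, or genes of similar length, are those where the larger value exceeds the smaller by at most 25%. The genes, lists and rules for naming genes were chosen with earlier results of these data known: all peaks of the 10 genes, the wider list's 5 highest (1 of which is counted but not reported here) and all without a promoter peak, the 6 highest polymerase III templates, and genes next to MAF1 in rank or position. The protein-coding gene TRNAU1AP, which the template rule took in by its symbol, was left out. Calculations used Python 3.11.15 with numpy 2.4.6 and pandas 2.3.3, and overlap counting and gene ranking were tested on simulated data. As alternatives, other promoter windows, subsets of peaks, ways of assigning genes and neighbourhood sizes were tried. No model was fitted.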

Additional observations from a re-analysis of the deposited data

How the results depend on the processing

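Of the recomputed values, 9 moved and 67 stayed equal or, for counts and densities, within 1.5 times. Windows of 500 and 5000 bp changed no score or width of the 7 genes and not the rank of MAF1. With the 5000 highest-scoring peaks alone, 1 of the 10 genes (MAF1) and 4 of the wider list had a promoter peak, because fewer peaks are kept. The BRF1 score became 98 when any peak at the outermost RefSeq start counted, the one credited to PACS2. MAF1 ranked 7 among all genes and 19 among all peaks. Peaks per 100 kb moved from 7 to 11 at POLR3A and from 14 to 5 at GTF3C4 with 50 kb on either side, and from 3.5 to 2.25 at POLR3E and from 0 to 0.25 at GTF3C1 with 200 kb. Position rules for the wider list (27 genes) and the templates (12 genes) were added after seeing the data. No paired analysis was possible because the list merges the duplicates, and for the same reason leaving out a replicate was not run. Depth is unknown, so a missing peak does not show that PML is absent.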
